A study of Mus musculus with 12 samples.

Results

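The tumour necrosis factor (TNF) superfamily of ligands, the TNF receptor superfamily and the TNF receptor-associated factor (TRAF) adaptors were followed in mouse colon after toxin ablation of enteric neurons. Members were chosen by a rule on gene symbol that uses no measured value, though earlier results of these data were known. The rule took symbols that begin with Tnfsf or Tnfrsf and a digit, and Traf1 to Traf6. It also took 10 genes of the same families under other symbols (Tnf, Lta, Ltb, Ltbr, Fas, Fasl, Cd40, Cd40lg, Cd27 and Cd70). Tnfrsf17 was left out by the same rule. This gave 47 of the 27179 genes in the deposited table, made up of 17 ligands, 23 receptors, 6 TRAF adaptors and 1 antisense transcript, Tnfsf13os, which carries the name of a ligand but encodes none.

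RNA was sequenced from full-thickness colon at the injection site in 12 libraries. The 7 ablated libraries came from BAF53b-Cre::R26-iDTR mice, in which Cre driven by the neuronal BAF53b promoter switches on an inducible diphtheria toxin receptor (iDTR) at the Rosa26 locus. The 5 control libraries came from R26-iDTR mice labelled Cre-negative, described as littermates without iDTR expression. All mice of both groups underwent laparotomy and received diphtheria toxin at 0.33 ng per µL, 4 µL into the muscularis propria, together with 10% India ink as a stain. Surgery, toxin and ink were therefore common to both groups. The labels give no age, sex or interval between toxin and dissection. Whether the libraries stem from separate mice is not stated, so the spread behind each p-value may be technical.

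Ligands of the TNF superfamily are mostly trimeric proteins on the cell surface that can be shed, and each binds 1 or more receptors of the matching superfamily. Receptors with a death domain, such as Tnfrsf1a and Fas, can engage FADD and caspase-8, whereas most others recruit TRAF adaptors that carry the signal to the kinases of NF-kB and JNK. In the gut these families are known for the TNF of inflammatory bowel disease, for the lymphotoxins that build Peyer's patches and isolated lymphoid follicles, for RANKL, which drives the differentiation of M cells over those follicles, and for BAFF and APRIL, which keep B cells and plasma cells alive.

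All levels below are TPM (transcripts scaled to length and library), as deposited, in which a gene's reads are divided by its length and scaled to the library, so levels can be compared between genes. Differences are log2 fold changes of ablated minus control, with 95% intervals from limma; they were taken as log2(TPM + 0.5), and the added constant shrinks the differences of scarce transcripts. A gene is called where its limma p, adjusted (Benjamini-Hochberg) over the 16164 tested genes, is under 0.05. Depth was 13.4 to 26.9 M recovered reads per library. Mitochondrial transcripts took 18.7% of the reads of ablated 1, the shallowest library, and 3.56 to 10.4% of the others. Summed markers of enteric neurons lay at 51.5 to 133 TPM in control and 9.80 to 23.3 TPM in ablated, and all 6 tested neuronal markers were called lower, so the ablated label held in every library. The tissue label held as well, with summed epithelial markers at 4441 to 9557 TPM and smooth muscle markers at 3227 to 10791 TPM over the 12 libraries.

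Of the 47 members, 39 reached at least 0.5 TPM in at least 5 libraries and were tested. No member was called by limma, where 231 of all 16164 genes (1.43%) were called, 68 of them higher (0.421%) and 163 lower (1.01%) in ablated. By voom with limma on recovered reads none was called either, where 264 of 16163 genes (1.63%) were. At an unadjusted p under 0.05 stood 5 of the 39 members by limma and 5 by voom, in each case a share of 12.8% beside 11.8% over all genes. The groups overlapped for every tested member, whereas they did not overlap for 466 of all genes (2.88%). The differences of the 39 members had a median of -0.03, with 17 above 0 and 22 below, beside a median of 0.03 over all genes, of which 8997 were above 0.  A p that misses the threshold does not show equal levels, and for 11 members the interval reached a doubling or a halving, a log2 fold change of 1 either way. For the other 28 it stayed within that range on the log2(TPM + 0.5) scale. For scarce members among them, such as Tnfrsf9 and Tnfrsf22, the added constant shrinks the difference, so these intervals do not bound a change in TPM itself.

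**Figure D1:**
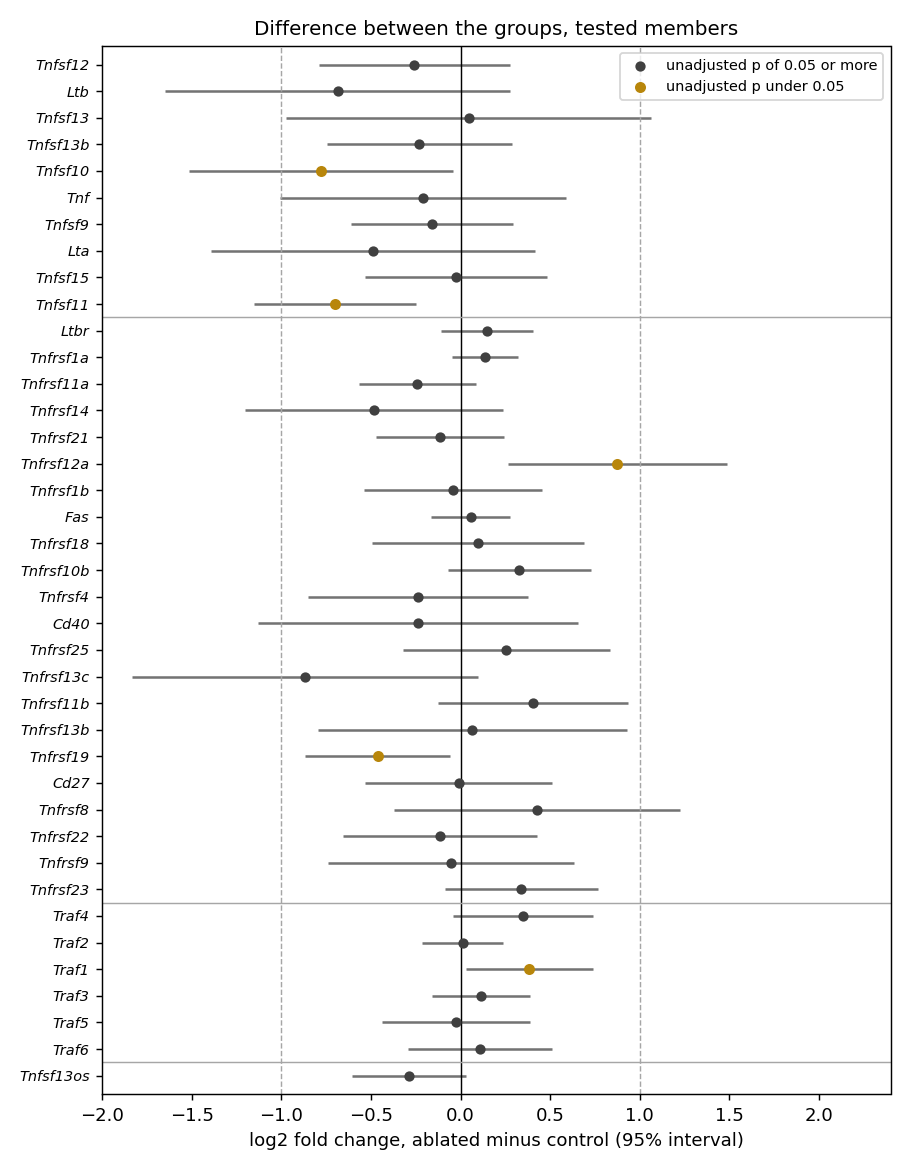
Each point is the log2 fold change (ablated minus control, log2(TPM + 0.5) scale) of 1 of the 39 tested members, and each bar its 95% interval, in the order ligands, receptors, TRAF adaptors and antisense transcript. Dashed lines mark a halving and a doubling; the 5 members with an unadjusted p under 0.05 are coloured, and no member was called after adjustment.

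The families differed in abundance by role. Receptor transcripts summed to 335 ± 28.4 TPM in control (SD, n = 5) and 363 ± 47.2 TPM in ablated (n = 7). TRAF adaptors summed to 80.5 ± 10.5 TPM and 93.2 ± 8.82 TPM in the same groups. Ligands were the scarcest, at 41.9 ± 7.91 TPM in control and 37.7 ± 12.03 TPM in ablated. The colon wall thus held several times more receptor than ligand transcript in each group, and for each role the groups' sums overlapped.

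**Figure D2:**
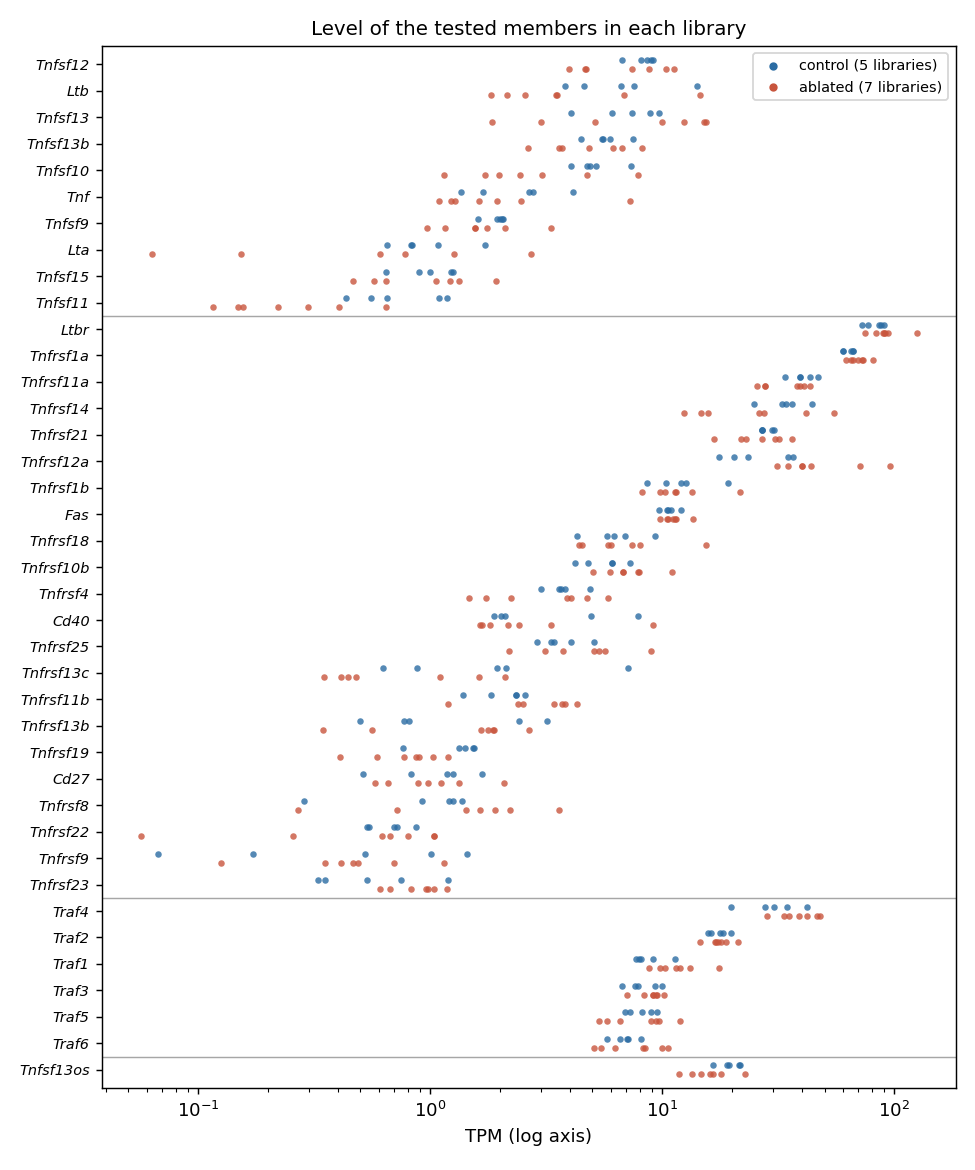
TPM of each of the 39 tested members in each library, on a log axis, ordered by role and by level. Ltbr and Tnfrsf1a lie at the top of the receptors at over 60 TPM in every library, and the control and ablated ranges of every member overlap; 1 value of 0 (Lta in ablated 5) cannot be drawn.

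Of the 17 ligands 10 were tested, none was called, and 9 of the 10 differences lay below 0, with a median of -0.24. The 3 most abundant in control were Tnfsf12, Ltb and Tnfsf13, and 2 of the 10, Tnfsf11 and Tnfsf10, had an unadjusted p under 0.05.

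Tnfsf11 encodes RANKL, the ligand that drives osteoclasts in bone and M cells over gut lymphoid tissue (Entrez 21943, mm10 chromosome 14, 78277445 to 78308043, minus strand). It stood at 1.09, 0.434, 0.648, 1.18 and 0.554 TPM in control and at 0.115, 0.297, 0.643, 0.156, 0.149, 0.406 and 0.220 TPM in ablated. Of the 7 ablated libraries 6 lay below the lowest control, and ablated 3 alone lay among the controls. Means were 0.780 ± 0.332 TPM in control (SD, n = 5) and 0.284 ± 0.188 TPM in ablated (n = 7), a log2 fold change of -0.70 (-1.15 to -0.25) with an adjusted p of 0.156 from limma. The transcript rests on 101 recovered reads in control and 56 in ablated over all libraries. It reached 0.5 TPM in 4 control libraries and 1 ablated library and so passed the minimum largely through the group where it was higher. With no minimum its adjusted p was 0.113, and with a weight per library it was 0.0431, the lowest of its alternatives, which ran up to 0.462. It fell below the minimum, and could not be fitted, when any of 5 single libraries was left out.

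Values of cell types that bear on RANKL stood as follows. Of the M cell markers, which lie downstream of RANKL, Gp2 was at 0.340 to 1.37 TPM in control and 0.126 to 0.485 TPM in ablated and was not tested, and Spib, which B cells also express, had an adjusted p of 0.298 from limma. The third gene of that list, Tnfaip2, which other cells also express, had means of 5.38 TPM in control and 7.63 TPM in ablated, with 23.1 TPM in ablated 3 (log2 fold change of 0.20, adjusted p of 0.929). Summed M cell markers lay at 8.47 to 23.2 TPM in control and 7.62 to 32.0 TPM in ablated, and no gene of that list was called. Summed T cell markers were 10.2 to 20.6 TPM in control and 4.31 to 31.0 TPM in ablated, with control 4 and ablated 3 the highest of their groups. Their part in the values of Tnfsf11 was not tested. In tissue pieces like these, fewer cells of a type and less RNA per cell cannot be told apart.

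Tnfsf10 encodes TRAIL, which binds the death receptor Tnfrsf10b in the mouse (Entrez 22035, mm10 chromosome 3, 27317028 to 27342427, plus strand). Control libraries held 7.36, 4.03, 5.16, 4.75 and 4.89 TPM, and ablated libraries 1.15, 3.04, 7.82, 1.97, 4.74, 1.72 and 2.43 TPM. Here 5 of 7 ablated libraries lay below every control, ablated 5 lay among the controls, and ablated 3 was the highest of all 12. The mean was 5.24 ± 1.26 TPM in control (SD, n = 5) and 3.27 ± 2.32 TPM in ablated (n = 7), a log2 fold change of -0.78 (-1.52 to -0.04) with an adjusted p of 0.379 from limma. Over the alternatives its adjusted p ran from 0.106, without ablated 3, to 0.698.

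Tnfsf12, which encodes TWEAK, the ligand of Tnfrsf12a, was the most abundant ligand in control (mm10 chromosome 11, 69686250 to 69695849, minus strand). Values were 8.55, 8.90, 9.13, 8.08 and 6.72 TPM in control and 7.39, 11.2, 8.77, 4.68, 3.97, 10.4 and 4.65 TPM in ablated. Ablated 4, 5 and 7 lay below every control and ablated 2 and 6 above every control. Group means were 8.28 ± 0.955 TPM (SD, n = 5) and 7.29 ± 2.94 TPM (n = 7), with a log2 fold change of -0.26 (-0.79 to 0.27) and an adjusted p of 0.783 from limma.

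Tnfsf13 encodes APRIL, a survival factor for plasma cells that epithelium and myeloid cells make (mm10 chromosome 11, 69682846 to 69685784, minus strand). It stood at 8.83, 4.05, 6.08, 9.72 and 7.42 TPM in control, and at 1.84, 5.14, 9.99, 12.4, 15.5, 2.99 and 15.2 TPM in ablated. The ablated libraries enclosed the whole control range, with ablated 4, 5 and 7 the highest of all libraries and ablated 1 and 6 the lowest. The log2 fold change was 0.05 (-0.97 to 1.07, adjusted p of 0.990 from limma), and its sign turned with quantile normalization, at -0.022, and when control 2 or ablated 3, 4, 5 or 7 was left out, down to -0.13. Summed epithelial markers ranked the ablated libraries in a similar way, at 9022, 8261 and 9557 TPM in ablated 4, 5 and 7 and at 4441 and 5651 TPM in ablated 1 and 6. Cdx2 of that list did not rank so, at 38.2 TPM in ablated 4 and 45.0 TPM in ablated 1. Summed plasma cell markers ranged from 2095 to 4198 TPM in control and from 499 to 3108 TPM in ablated, the latter in ablated 5. The part of either in the values of Tnfsf13 was not tested.

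Tnfsf12, Tnfsf13 and Tnfsf13os overlap on chromosome 11. A read-through gene, Tnfsfm13, shares 731 exonic bases with Tnfsf12 and 983 with Tnfsf13 on the same strand, and Tnfsf13os shares 221 with Tnfsf13 on the opposite strand. The library kit keeps strand, but whether the counting used it is not given in the sources used here, so reads of these genes cannot be told apart with certainty. Tnfsf13os stood at 16.5, 19.3, 21.7, 18.9 and 21.4 TPM in control and at 11.8, 22.7, 16.5, 13.4, 16.1, 17.8 and 14.7 TPM in ablated, with 5 of 7 ablated libraries below the lowest control and ablated 2 above all. Its log2 fold change was -0.29 (-0.61 to 0.03), with an adjusted p of 0.481 from limma.

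Ltb encodes lymphotoxin beta, which pairs with lymphotoxin alpha on lymphocytes and innate lymphoid cells to signal through Ltbr (mm10 chromosome 17, 35194439 to 35196320, plus strand). Its values were 7.51, 3.82, 4.59, 14.1 and 6.63 TPM in control and 6.83, 3.49, 14.6, 2.15, 1.82, 2.55 and 3.53 TPM in ablated. Control 4 and ablated 3 stood apart at the top of their groups, and 5 ablated libraries lay below every control. The mean was 7.33 ± 4.07 TPM in control (SD, n = 5) and 4.99 ± 4.55 TPM in ablated (n = 7), a log2 fold change of -0.69 (-1.65 to 0.28) with an adjusted p of 0.626 from limma. Summed B cell markers were highest in the same libraries, at 108 TPM in control 4 and 46.0 TPM in ablated 3, against 14.3 to 36.7 TPM in the other controls and 6.09 to 26.5 TPM in the other ablated libraries. No B cell or T cell marker was called, and the part of these cells in the values of Ltb was not tested. Of the markers of type 3 innate lymphoid cells, which also make lymphotoxin, Il22 was listed at 0 in all libraries.

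The other tested ligands were Tnfsf13b, Tnf, Tnfsf9, Lta and Tnfsf15, described here after their values were seen. Tnfsf13b, which encodes the B cell factor BAFF, had means of 5.80 TPM in control and 5.11 TPM in ablated and an adjusted p of 0.810 from limma. Tnf itself stood at 1.36, 2.77, 1.69, 4.13 and 2.65 TPM in control and at 2.47, 1.28, 7.25, 1.62, 1.23, 1.94 and 1.09 TPM in ablated. Ablated 3 was far above its group for Tnf, and the other 6 ablated libraries lay within or below the control range. The interval of Tnf, -1.01 to 0.59, reached a halving, so neither no difference nor a halving lay outside it (adjusted p of 0.918 from limma). Lta, which encodes lymphotoxin alpha and neighbours Tnf and Ltb on chromosome 17, ranged from 0.648 to 1.73 TPM in control and from 0 to 2.70 TPM in ablated. It stood at 0.0630, 0 and 0.153 TPM in ablated 4, 5 and 7 and at 2.70 TPM in ablated 1 (adjusted p of 0.746 from limma). Tnfsf9, the ligand of 4-1BB, and Tnfsf15, the ligand of Tnfrsf25, had log2 fold changes of -0.16 and -0.03.

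**Figure D3:**
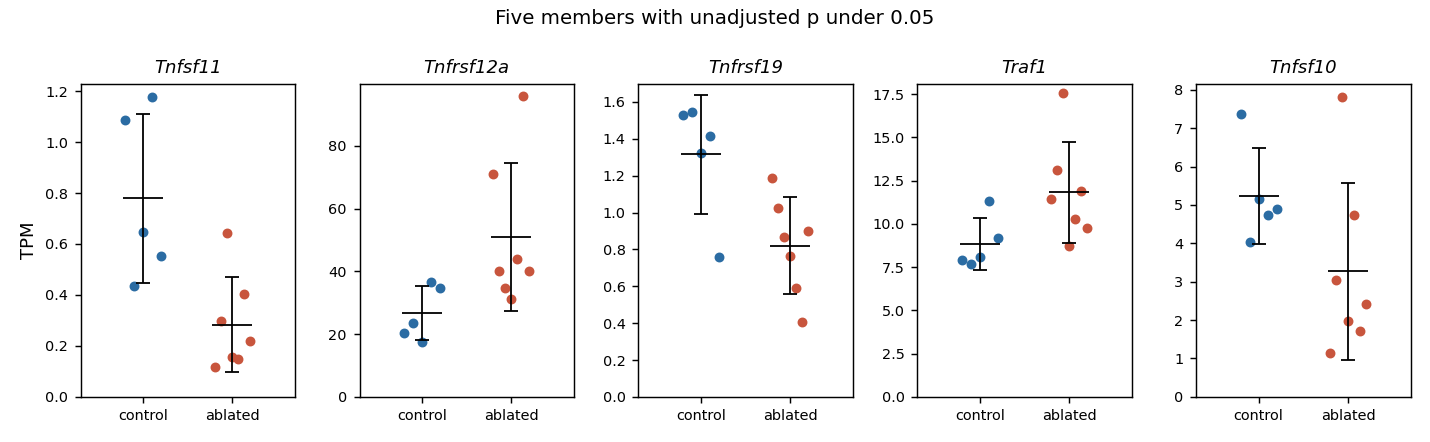
TPM per library of the 5 tested members with the smallest p (Tnfsf11, Tnfrsf12a, Tnfrsf19, Traf1 and Tnfsf10), with group means and SD (control n = 5, ablated n = 7). In each panel at least 1 ablated library lies within the control range, and none of the 5 was called.

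The 7 ligands below the minimum were Tnfsf14, Tnfsf8, Tnfsf4, Fasl, Tnfsf18, Cd40lg and Cd70, most of them known from activated lymphocytes and antigen-presenting cells. Tnfsf14, which encodes LIGHT, ranged from 0.120 to 0.514 TPM in control and from 0.0894 to 1.03 TPM in ablated. Fasl, the death ligand of cytotoxic cells, did not exceed 0.165 TPM in control and 0.413 TPM in ablated. Tnfsf18 was at 1.42 TPM in ablated 6 and at most 0.375 TPM in any other library, with 62 of its recovered reads in ablated and 5 in control. Cd70 reached 1.23 TPM in ablated 1 and was at 0 in 8 of the 12 libraries, with 11 recovered reads in all. Cd40lg, the helper T cell ligand of Cd40, held 3 recovered reads in control and 7 in ablated. Fitted with no minimum, these 7 ligands and the receptor Tnfrsf26 had adjusted p of 0.600 to 0.971 from limma.

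Of the 23 receptors 22 were tested, none was called, and 11 differences lay above 0 and 11 below, with a median of 0.02. The intervals of 17 stayed within a doubling or halving. Ltbr, Tnfrsf1a and Tnfrsf11a were the most abundant in control, and Tnfrsf12a and Tnfrsf19 had an unadjusted p under 0.05.

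Tnfrsf12a encodes Fn14, the receptor of TWEAK, which is induced in injured muscle and epithelium (Entrez 27279, mm10 chromosome 17, 23675445 to 23677468, minus strand). Control libraries stood at 20.4, 23.4, 17.6, 36.6 and 34.8 TPM and ablated libraries at 71.1, 40.0, 34.7, 31.1, 43.9, 95.9 and 40.1 TPM. Of the 7 ablated libraries 5 lay above every control, while ablated 3 and 4 lay among the controls, and ablated 6 and 1 were the highest of all. The mean was 26.6 ± 8.62 TPM in control (SD, n = 5) and 51.0 ± 23.7 TPM in ablated (n = 7), a ratio of 1.92. With a log2 fold change of 0.87 (0.26 to 1.49) its adjusted p from limma was 0.197, from 0.115 to 0.472 over the alternatives. All 7 ablated libraries exceeded the control mean. Summed skeletal muscle markers were 15.7 to 29.3 TPM in control and 33.8 to 131 TPM in ablated, with ablated 6 the highest at 131 TPM. No gene of that list was called. Acta1 and Tnnt3 had higher means in ablated. Ckm overlapped, at 9.01 to 13.6 TPM in control and 5.29 to 22.1 TPM in ablated, lowest in ablated 1 (adjusted p of 0.871 from limma). Ablated 1 had the highest mitochondrial share. The part of either in the values of Tnfrsf12a was not tested.

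Tnfrsf19, also called TROY, is a receptor known from intestinal stem cells and the nervous system (Entrez 29820, mm10 chromosome 14, 60963875 to 61046490, minus strand). It stood at 1.53, 1.55, 1.32, 1.42 and 0.760 TPM in control and at 1.19, 1.02, 0.869, 0.766, 0.591, 0.409 and 0.898 TPM in ablated. The 4 controls other than control 5 lay above every ablated library, and control 5 lay among the ablated. The mean was 1.32 ± 0.323 TPM in control (SD, n = 5) and 0.821 ± 0.261 TPM in ablated (n = 7), a log2 fold change of -0.46 (-0.87 to -0.06) with an adjusted p of 0.328 from limma. Summed neuronal markers differed between the groups as given above, and summed enteric glia markers lay at 11.2 to 16.2 TPM in control and 7.69 to 11.2 TPM in ablated. Their part in the values of Tnfrsf19 was not tested.

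Ltbr, the receptor of the lymphotoxin heterotrimer and of LIGHT, which stromal and epithelial cells carry, was the most abundant member (mm10 chromosome 6, 125306571 to 125313885, minus strand). It stood at 77.1, 85.5, 72.2, 87.6 and 90.7 TPM in control and at 125, 90.9, 93.5, 83.0, 74.4, 90.1 and 89.4 TPM in ablated. Ablated 1 lay far above the rest, ablated 2 and 3 lay just above the highest control, and the other 4 lay within the control range. The log2 fold change was 0.15 (-0.11 to 0.41), with an adjusted p of 0.719 from limma.

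Tnfrsf1a, the main receptor of soluble TNF, lies close by on the same chromosome (mm10 chromosome 6, 125349362 to 125362484, plus strand). It varied least of all tested members, with a coefficient of variation of 8.97% over the 12 libraries. Values were 65.0, 66.6, 60.2, 66.1 and 60.2 TPM in control and 73.4, 69.8, 81.1, 66.6, 62.0, 65.2 and 72.5 TPM in ablated. Means were 63.6 ± 3.18 TPM (SD, n = 5) and 70.1 ± 6.33 TPM (n = 7), and the interval of the log2 fold change, -0.05 to 0.32, held 0 (adjusted p of 0.617 from limma). Its level in control was 25.3 times that of its ligand Tnf. The second TNF receptor, Tnfrsf1b, which immune cells carry, had means of 12.6 and 12.3 TPM (adjusted p of 0.977 from limma).

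Tnfrsf11a encodes RANK, the receptor of Tnfsf11 (mm10 chromosome 1, 105780718 to 105847981, plus strand). It stood at 43.1, 46.8, 33.9, 39.2 and 39.1 TPM in control and at 25.6, 43.1, 38.2, 27.6, 40.6, 39.1 and 27.8 TPM in ablated. Ablated 1, 4 and 7 lay below every control and the other 4 within the control range. The log2 fold change was -0.24 (-0.57 to 0.08), with an adjusted p of 0.607 from limma. Tnfrsf11b, the secreted decoy of RANKL known as osteoprotegerin, ranged from 1.38 to 2.57 TPM in control and from 1.19 to 4.28 TPM in ablated (adjusted p of 0.597 from limma). The 3 parts of this axis thus stood apart in level: in every library the receptor was the most abundant, the decoy lay between, and the ligand was the scarcest.

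The remaining receptors were described after their values were seen. Among death receptors, Fas varied little, at 9.70 to 11.98 TPM in control and 9.80 to 13.5 TPM in ablated, and its interval of -0.17 to 0.28 was among the narrowest. Tnfrsf10b, the TRAIL receptor, had means of 5.68 and 7.32 TPM (adjusted p of 0.546 from limma), and Tnfrsf21, known as DR6, means of 28.1 and 26.7 TPM (adjusted p of 0.890). Tnfrsf14, which encodes HVEM, the receptor of LIGHT, spread widely in ablated. It ranged from 24.9 to 44.2 TPM in control, stood at 12.4, 14.6 and 15.7 TPM in ablated 4, 5 and 7, and reached 55.0 TPM in ablated 1 (adjusted p of 0.651 from limma). Ablated 4, 5 and 7 were the 3 lowest of all 12 libraries for 7 tested members, Tnfsf12, Tnfsf13b, Lta, Tnfrsf14, Tnfrsf4, Tnfrsf13c and Traf5. The same libraries had the lowest summed B cell markers, at 6.09, 6.83 and 7.01 TPM, and the highest summed epithelial markers. Of the epithelial list, Krt8, Krt20, Vil1 and Cdh1 were highest in these libraries, while Epcam and Cdx2 were not. The part of either cell type was not tested.

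Receptors of lymphocytes and antigen-presenting cells followed single libraries. Tnfrsf13c, the BAFF receptor of B cells, had the widest spread of the tested members, a coefficient of variation of 117%. It stood at 1.95, 0.627, 0.880, 7.10 and 2.12 TPM in control and at 1.62, 0.479, 2.10, 0.412, 0.349, 1.10 and 0.443 TPM in ablated. All 7 ablated libraries lay below the control mean, which rests largely on control 4, the library with the highest summed B cell markers (log2 fold change of -0.87, -1.84 to 0.10, adjusted p of 0.490 from limma). Cd40, which B cells and myeloid cells carry, was highest in control 4, at 7.85 TPM, and in ablated 3, at 9.09 TPM, and between 1.64 and 4.95 TPM elsewhere. Tnfrsf18, known as GITR and typical of regulatory T cells, reached 15.4 TPM in ablated 3 and lay between 4.30 and 9.33 TPM in the others. Tnfrsf13b, Cd27 and Tnfrsf9 were highest in control 4, ablated 3 and control 4 in that order, and had means between 0.527 and 1.54 TPM in each group. Tnfrsf4, Tnfrsf8 and Tnfrsf25 were each highest in ablated 1, at 5.81, 3.60 and 8.93 TPM.

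Tnfrsf22, Tnfrsf23 and Tnfrsf26 are neighbouring, closely related genes on chromosome 7, of which Tnfrsf22 and Tnfrsf23 are known as TRAIL decoys in the mouse. They lay at 0.0567 to 1.19 TPM over all libraries. Reads could be split between such copies, so their values are uncertain. Tnfrsf26 also fell below the minimum.

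All 6 TRAF adaptors were tested and none was called, with 5 of 6 differences above 0, a median of 0.11 and all 6 intervals within a doubling or halving. Traf4, Traf2 and Traf1 were the most abundant in control.

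Traf1, itself an NF-kB target that binds Traf2 (Entrez 22029, mm10 chromosome 2, 34941750 to 34961772, minus strand), stood at 7.92, 7.67, 8.10, 11.3 and 9.16 TPM in control and at 11.4, 13.1, 17.6, 8.74, 10.3, 11.9 and 9.74 TPM in ablated. Of the 7 ablated libraries 4 lay above every control, with ablated 3 the highest. The mean was 8.83 ± 1.49 TPM in control (SD, n = 5) and 11.8 ± 2.92 TPM in ablated (n = 7), a log2 fold change of 0.38 (0.03 to 0.74) with an adjusted p of 0.372 from limma. Summed macrophage and monocyte markers were also highest in ablated 3, at 280 TPM, against 77.3 to 214 TPM in the other libraries. Their part in the values of Traf1 was not tested.

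Traf4, an adaptor prominent in epithelium (mm10 chromosome 11, 78158499 to 78165589, minus strand), was the most abundant of the 6. It stood at 27.7, 19.7, 30.4, 34.4 and 42.1 TPM in control and at 41.8, 28.4, 38.6, 46.5, 35.3, 33.5 and 47.7 TPM in ablated. Ablated 4 and 7 lay above every control and none below, and the log2 fold change was 0.35 (-0.04 to 0.74, adjusted p of 0.491 from limma).

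Traf2, which links TNF receptors to the cIAP ubiquitin ligases (mm10 chromosome 2, 25517982 to 25546940, minus strand), differed least. It stood at 17.7, 15.7, 16.2, 19.7 and 18.2 TPM in control and at 17.9, 16.9, 21.1, 17.1, 17.4, 14.5 and 18.8 TPM in ablated. Its log2 fold change was 0.01 (-0.22 to 0.24, adjusted p of 0.988 from limma), and the sign turned with median-of-ratios scaling, with quantile normalization, with voom and when control 2 or 3 or ablated 3 or 7 was left out. Traf3, the brake on the alternative NF-kB pathway, had means of 8.28 and 8.95 TPM, Traf5 of 8.15 and 8.24 TPM, and Traf6, which also serves Toll-like receptors, of 6.92 and 7.70 TPM. Traf5 overlaps a transcript of the opposite strand over 205 exonic bases, and so do Tnfrsf18 over 414, Tnfsf9 over 192, Tnfrsf23 over 164 and Tnfrsf26 over 107 bases. The reads of these members may not all be their own.

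Many of these genes are known to feed into NF-kB and to be induced by it, so the 250 bases before each start were searched for the kappaB motif on both strands. RefSeq promoters of build GRCm38.p6 were at hand for 36 of the 47 members. A match stood in 4 of the 36 (11.1%), Ltb, Tnfrsf8, Tnfrsf9 and Traf3, beside 1204 of 27025 genes (4.46%). The windows of Ltb and Traf3 are printed because they are a ligand and an adaptor of the same receptor, with widely different spread between libraries, the match in capitals.
Ltb, chr17:35194257-35194506, plus strand: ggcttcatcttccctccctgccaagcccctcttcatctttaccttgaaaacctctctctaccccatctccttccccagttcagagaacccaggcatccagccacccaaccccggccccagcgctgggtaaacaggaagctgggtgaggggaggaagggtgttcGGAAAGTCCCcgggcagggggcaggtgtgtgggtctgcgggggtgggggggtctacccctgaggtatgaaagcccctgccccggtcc
Traf3, chr12:111166120-111166369, plus strand: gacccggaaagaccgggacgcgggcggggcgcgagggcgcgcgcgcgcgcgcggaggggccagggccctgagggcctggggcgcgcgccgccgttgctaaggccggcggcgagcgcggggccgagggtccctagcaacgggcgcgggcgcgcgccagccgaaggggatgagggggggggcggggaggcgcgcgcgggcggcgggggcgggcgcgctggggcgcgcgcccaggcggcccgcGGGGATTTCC
The match in Ltb begins 87 bases before its RefSeq start and that in Traf3 10 bases before its own. The Ltb window ends at 35194506, past the GENCODE start of 35194439 given above, so its last bases lie within those coordinates. Ltb had a coefficient of variation of 72.5% over the 12 libraries and Traf3 one of 13.3%. Tnfrsf8 held its match 168 bases before the start, and the second start of Tnfrsf9 held overlapping matches 43 and 42 bases before it. A match is a run of letters and not a shown binding site.

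Beyond the members, 88 genes of the same pathways were taken from 5 lists, 81 of them tested, and 1 was called, Ngfr, which was lower. By limma, 7 of the 81 stood at an unadjusted p under 0.05. Over all genes tested, 11.8% stood at that level and 1.43% were called. Ngfr encodes p75NTR, a receptor of neurotrophins and a member of the TNF receptor superfamily under another symbol, which enteric neurons and glia express. It stood at 2.21, 5.56, 4.47, 3.29 and 3.12 TPM in control and at 1.14, 1.19, 1.17, 0.818, 2.12, 1.25 and 0.763 TPM in ablated. No ablated library reached the lowest control, and the groups did not overlap for 2.88% of all genes tested. It fell 3.09-fold, from 3.73 ± 1.30 TPM (SD, n = 5) to 1.21 ± 0.446 TPM (n = 7), with a log2 fold change of -1.29 (-1.77 to -0.81) and an adjusted p of 0.00929 from limma. The call was lost without control 3, at an adjusted p of 0.0542 from limma, and with a block for the replicate number, at 0.134. The summed neuronal markers given above and the glial markers given with Tnfrsf19 stood at those levels in the same libraries, and their part in the fall of Ngfr was not tested. Of the other 4 genes of that list, Eda2r and Relt were tested and not called, and Eda and Edar were below the minimum.

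Of 37 tested adaptors and regulators of cell death and survival none was called, with 22 differences above 0 and a median of 0.07. Traf7, a ubiquitin ligase, had means of 55.0 and 70.6 TPM (adjusted p of 0.112 from limma). Map3k7, the kinase TAK1, stood at 17.4 to 18.9 TPM in control and 19.4 to 23.9 TPM in ablated (log2 fold change of 0.23, adjusted p of 0.264 from limma). Its groups did not overlap, which also held for 2.88% of all genes tested. Of the 14 genes of the NF-kB core none was called, with a median of 0.07. Chuk, the kinase IKK alpha, had means of 33.0 and 44.4 TPM (adjusted p of 0.242), and Relb, a subunit of the alternative pathway, 45.2 and 57.5 TPM (adjusted p of 0.443).

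Of 20 tested NF-kB target genes none was called, with 10 differences above 0 and 10 below and a median of 0.03. Ccl20, an epithelial chemokine that draws CCR6-positive lymphocytes, ranged from 9.10 to 15.3 TPM in control. It stood at 6.75, 1.76, 5.88, 1.96, 24.5, 6.35 and 3.77 TPM in ablated, so that 6 ablated libraries lay below every control and ablated 5 above every control (adjusted p of 0.365 from limma). Without ablated 5, the library above every control, it passed, with an adjusted p of 0.0449 from limma. Without control 2 the adjusted p was 0.665. Gadd45b, a stress gene, had means of 45.9 and 58.5 TPM (adjusted p of 0.555).

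Of 7 tested lymphotoxin targets and lymphoid tissue genes none was called, and 5 differences lay below 0, with a median of -0.55. Cxcl13, the chemokine of B cell follicles, stood at 16.2, 9.06, 12.3, 22.8 and 11.3 TPM in control and at 5.88, 10.3, 11.5, 5.93, 3.65, 6.96 and 6.41 TPM in ablated. Ablated 2 and 3 lay among the controls and the other 5 below them (log2 fold change of -0.94, -1.53 to -0.36, adjusted p of 0.135 from limma). Enpp2, which encodes autotaxin of lymphoid vessels and is also expressed by other cells, had means of 17.0 and 8.66 TPM (log2 fold change of -1.05, -1.73 to -0.37, adjusted p of 0.157). Without ablated 3 it passed, with an adjusted p of 0.0192 from limma, whereas without control 1 the adjusted p was 0.369. The levels of these genes, as of Ltb, stand beside the B cell marker sums given above, whose part was not tested.

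By the median, the tested members varied more between libraries than all genes tested. Their median coefficient of variation over all 12 libraries was 36.7%, beside 24.8% over all genes tested, with 53.4% for ligands, 39.2% for receptors and 23.3% for TRAF adaptors. These values are a description that includes both groups and the counting error of low genes. Single libraries held many of the extremes. Ablated 3 was the highest of the 12 for 13 of the 39 tested members and the lowest for none. Ablated 1, the shallowest library, was the highest for 8 and the lowest for 11, and control 4 was the highest for 5.

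**Figure D4:**
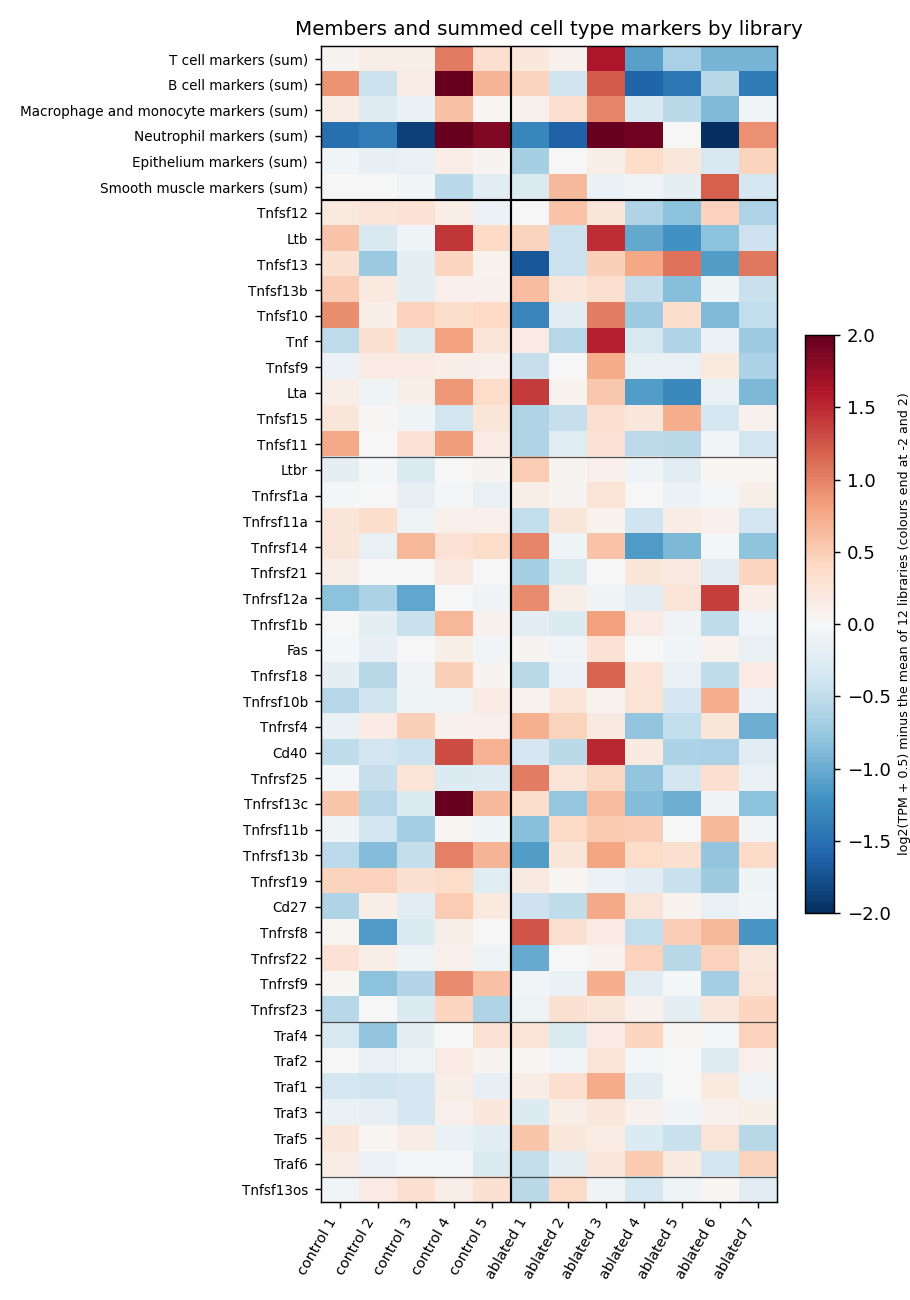
Each cell is the log2(TPM + 0.5) of 1 tested member in 1 library minus its mean over the 12 libraries, red above and blue below, with colours ending at -2 and 2; the top rows show summed markers of 6 cell types in the same way. Control 4 and ablated 3 are red for B cell, T cell and neutrophil markers and for Ltb, Tnf and Cd40.

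Of these libraries control 4 and ablated 3, but not ablated 1, also had the highest summed T cell, macrophage and neutrophil markers. T cell markers stood there at 20.6 and 31.0 TPM, macrophage and monocyte markers at 214 and 280 TPM, and neutrophil markers at 186 and 188 TPM. Neutrophil markers were also uneven elsewhere, from 1.92 TPM in ablated 6 to 85.4 TPM in ablated 4. None of the tested genes of the T cell, B cell, macrophage and neutrophil lists was called, and their part in the members' values was not tested. Leaving out ablated 3 left 0 members called and 5 with an unadjusted p under 0.05. Leaving out control 4 left 0 called and 3 at that level. The count at that level also fell to 2 without control 1, control 3 or ablated 6 and to 3 without control 5, and it was highest, at 7, without ablated 1.

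In the authors' deposited table, which holds an edgeR comparison of the groups, 306 of 27179 genes (1.13%) had a false discovery rate under 0.05 and none of the 47 members did. The authors' deposited table gave 6 of the 47 members (12.8%) an unadjusted p under 0.05, beside 9.44% of all 27179 genes, which include genes of very low level. Its lowest false discovery rate among members was 0.159, for Tnfsf11, at a log2 fold change of -1.46, where the fit on log2(TPM + 0.5) gave -0.70. For Tnfrsf12a the authors' deposited table gave a log2 fold change of 0.94 and a false discovery rate of 0.272.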

How the data were processed

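Full-thickness colon of 5 control and 7 ablated libraries was measured by poly(A) RNA sequencing with a directional kit, per the labels' protocols. The submitters' processing notes name bcl2fastq 2.17, HISAT, featureCounts and mm10; other versions and the strand setting are not given in the sources used here. The deposited files hold TPM per gene, and the per-sample values are identical to those of the series table. The series table also holds the authors' edgeR comparison, with log2 fold change and log2 CPM, an F score, a p-value and a false discovery rate per gene; its design is not stated in the file headers.

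For the 16164 genes at 0.5 TPM or more in 5 or more libraries, log2(TPM + 0.5) was fitted by lmFit and trended eBayes (limma 3.58.1, R 4.3.3), with Benjamini-Hochberg adjustment. The count test planned for raw counts could not be the main test on TPM. Whole reads were recovered from the TPM by searching a length per gene (22840 of 22842 genes above 0, within 0.05 read) and served for depth and for voom in limma as an alternative chosen after the data were seen. At this depth 1 read per kilobase is worth 0.0697 to 0.129 TPM. The fit was tested on simulated data. Python 3.11.15 with numpy 2.4.6, pandas 2.3.3 and matplotlib 3.10.9 made counts and figures. Symbols are those of the files, and coordinates come from GENCODE on mm10.

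Members given in every library are those called, those with groups that do not overlap, the 6 others with the smallest p, and the 3 most abundant of each role in control. All further members named in the text, with Tnf and Tnfrsf13c given in every library too, were picked with their values in view. Pathway genes named are those called or the 2 smallest p of a list. The members and lists were chosen with earlier results of these data known. Alternatives changed the added constant, the minimum, the scaling, the variance model, a replicate block and the libraries.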

Additional observations from a re-analysis of the deposited data

Results flagged for a closer look

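In 7 of 94 groups of libraries (each of the 47 members in each group) the highest or lowest library stood far from its nearest neighbour for the group's range on the log2(TPM + 0.5) scale; chance gives about 1 in 20 such groups. Ablated 3 stood out for Tnf, at 7.25 TPM where the next ablated library had 2.47 TPM, and for Cd40, at 9.09 TPM against 3.32 TPM. Ablated 6 stood out for Tnfsf18, at 1.42 TPM against 0.375 TPM. Cd70 stood out in ablated 1, at 1.23 TPM against 0.0949 TPM, and in control 4, at 0.0945 TPM where the other controls had 0, which is 1 recovered read. On the low side, control 1 had 1.60 TPM of Tnfsf9 where the next control had 1.95 TPM, and control 5 had 0.760 TPM of Tnfrsf19 where the next control had 1.32 TPM.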

How the results depend on the processing

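The count of all genes called moved from 231 to 349 with no minimum, to 1092 with a weight per library, to 84 with the replicate block, and to between 80 and 329 when single libraries were left out. Members called stayed at 0 except with a weight per library, where 1 member, Tnfsf11, passed (adjusted p of 0.0431), and ranged from 0 to 0 with single libraries left out. Pathway genes called were 1 in the reported fit, 5 with a weight per library (Ngfr, Enpp2, Cxcl13, Map3k7 and Chuk), 0 with the replicate block (Ngfr at an adjusted p of 0.134), and 0 to 2 with single libraries left out. Members with an unadjusted p under 0.05 numbered 14 with a weight per library (35.9% of members beside 27.8% of all genes), 2 with the replicate block (5.13% beside 9.30%) and 2 to 7 with single libraries left out. Of 302 log2 fold changes of the 14 members given in every library, over 22 alternative settings, 288 kept their direction and side of the threshold, 1 passed it and 13 changed sign. Those 13 belong to Tnfsf13 (-0.022 with quantile normalization, -0.13 to 0.33 with single libraries left out) and Traf2 (-0.010 with median-of-ratios scaling, -0.057 with quantile normalization, -0.054 with voom, -0.031 to 0.056 with single libraries left out); the cause was not tested. An edgeR test on recovered reads was planned and is not reported, because the deposited unit is TPM; voom with limma on those reads, chosen after the data were seen, took its place. The sample titles number the libraries but state no pairing. Same-numbered libraries correlated at -0.269 to 0.359 after group means were removed, which cannot exclude a pairing. Of 5 numbers only number 2 had its highest correlation with its own number. The 8 members below the minimum rest on as few as 10 recovered reads over all libraries (Cd40lg), and whether depth sets their results was not tested.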
